A study of Mus musculus with 9 samples.

Results

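The genes described here are 35 antiviral interferon-stimulated genes in the mouse line Panc02, derived from a pancreatic ductal adenocarcinoma, taken by gene symbol from the 49671 genes of the deposited count table. All 35 symbols were found once each, and 34 of these genes passed the filter on low counts. Mx1 did not pass, with 104 counts over all libraries. RNA came from 9 libraries of untreated cultured cells in 3 groups of 3. They were the parental line with the genotype label wild type, the single clone KO_1E7 labelled VPAC2 knockout, and the single clone CRISPR_1G2 labelled CRISPR-wild type. The design text of the series counts CRISPR_1G2 too as derived from knockout cells, whereas its genotype label does not, and groups here follow the label. VPAC2 is a receptor for vasoactive intestinal peptide and is encoded by Vipr2. Each clone is 1 line, so in KO_1E7 the loss of VPAC2 and other properties of the clone cannot be told apart.

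Type I interferons bind the receptor of Ifnar1 and Ifnar2, whose kinases JAK1 and TYK2 activate STAT factors. STAT2 and IRF9 belong to the complex ISGF3, which binds interferon-stimulated response elements in promoters and switches on genes that sense viral RNA, block translation or replication, or amplify the response. Many of these genes are also transcribed at a low level by cells that have met no virus, and many tumour lines express part of the set.

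Gene counts per library ranged from 27898705 to 51878289. Parental 3 stood apart in RNA composition, with 23.4% of its gene counts on ribosomal RNA related genes against 1.00% to 1.83% in the other libraries. Summed levels of 10 p53 target genes were 3293 CPM (counts per 1000000 of the TMM-scaled library size) in parental 3 and 7181 CPM in CRISPR_1G2 3, against 1258 to 2128 CPM elsewhere. The third library of each group carries the word NSG in its deposited column name where the others carry a date. The dates in these names match for parental 1 and KO_1E7 1 and, across replicate numbers, for parental 2 and CRISPR_1G2 1. What the dates mark and what that word stands for are not given in the sources used here. Vipr2 itself had 3 to 12 counts in the parental libraries, 1 to 2 in KO_1E7 and 1 to 13 in CRISPR_1G2. All 9 duct and epithelial markers reached 1 CPM in some library, with Krt8, a keratin of simple epithelia, at 248 to 1033 CPM.

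The promoters of the members called lower in KO_1E7 are shown first, with that of Isg15 for comparison, because promoters are where ISGF3 and the IRF factors bind and these genes differ in how many matches they hold. The stretches are the 200 bases before the start of the RefSeq gene on GRCm38.p6, 5′ to 3′ on the strand of the gene. Capitals mark matches to GAAA repeated after 2 bases of any kind, on either strand, the core of an interferon-stimulated response element, and neighbouring matches can overlap.
Oas1g: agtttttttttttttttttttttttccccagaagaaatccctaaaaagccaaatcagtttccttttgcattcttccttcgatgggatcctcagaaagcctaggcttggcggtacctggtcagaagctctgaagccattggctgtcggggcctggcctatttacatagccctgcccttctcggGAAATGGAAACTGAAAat
Oas1a: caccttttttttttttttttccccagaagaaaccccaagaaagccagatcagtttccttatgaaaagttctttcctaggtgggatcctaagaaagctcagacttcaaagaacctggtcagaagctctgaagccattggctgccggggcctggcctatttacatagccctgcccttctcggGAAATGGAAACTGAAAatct
Ifit1: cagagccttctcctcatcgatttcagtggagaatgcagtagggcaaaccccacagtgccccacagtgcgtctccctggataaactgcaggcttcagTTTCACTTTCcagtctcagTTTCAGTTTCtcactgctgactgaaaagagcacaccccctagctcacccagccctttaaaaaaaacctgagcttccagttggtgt
Ifit3b: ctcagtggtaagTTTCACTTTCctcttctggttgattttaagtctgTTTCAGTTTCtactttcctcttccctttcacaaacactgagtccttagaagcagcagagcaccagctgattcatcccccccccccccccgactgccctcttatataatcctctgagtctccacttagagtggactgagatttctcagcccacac
Oasl1: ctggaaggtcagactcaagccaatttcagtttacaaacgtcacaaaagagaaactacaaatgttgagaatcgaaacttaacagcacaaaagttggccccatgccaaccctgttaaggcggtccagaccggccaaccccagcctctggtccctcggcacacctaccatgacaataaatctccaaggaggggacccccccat
Cmpk2: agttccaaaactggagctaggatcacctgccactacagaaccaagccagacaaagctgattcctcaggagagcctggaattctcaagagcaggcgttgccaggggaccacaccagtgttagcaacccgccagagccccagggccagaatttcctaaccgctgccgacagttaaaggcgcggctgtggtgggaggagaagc
Isg15: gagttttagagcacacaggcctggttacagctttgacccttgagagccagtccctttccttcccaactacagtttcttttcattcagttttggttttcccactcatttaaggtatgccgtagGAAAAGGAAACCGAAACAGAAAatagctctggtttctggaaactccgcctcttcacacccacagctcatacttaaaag

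These stretches lie at chr5:120887614-120887813 (minus strand) for Oas1g, chr5:120907526-120907725 (minus strand) for Oas1a, chr19:34640689-34640888 (plus strand) for Ifit1, chr19:34607757-34607956 (plus strand) for Ifit3b, chr5:114923040-114923239 (plus strand) for Oasl1, chr12:26469015-26469214 (plus strand) for Cmpk2 and chr4:156200819-156201018 (minus strand) for Isg15. RefSeq windows of 250 bases before to 50 after the start were matched for 26 of the 35 members, and 14 of those (53.8%) held this repeat on either strand, against 3.44% of all 32851 windows. In 7 members there were 2 or more matches, as in 0.225% of all windows. Oas1a and Oas1g held an overlapping pair directly before the start, Ifit1, Ifit3 and Ifit3b a spaced pair further upstream on the other strand, and Isg15 a run of 3. Within these windows Oasl1 and Cmpk2 held none, though both were called lower in KO_1E7. Eif2ak2 held 1, just after its start, and did not pass in any comparison. A match is a description of letters, not evidence of a bound site.

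**Figure D1:**
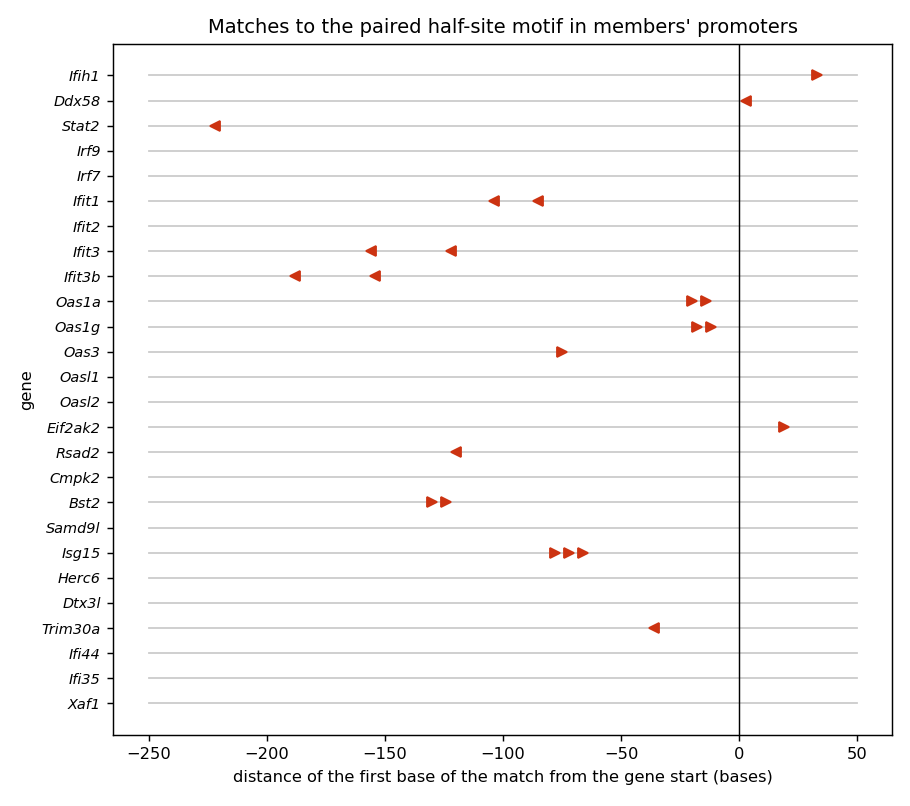
Positions of the GAAA repeat in the promoter windows of the 26 members with a RefSeq window, as distance in bases of the first base of the match from the gene start (vertical line). Triangles pointing right are matches on the strand of the gene and those pointing left matches on the other strand. In 14 members at least 1 match is seen, most of them before the start.

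In KO_1E7 against parental, 6 members fell by edgeR at an adjusted p below 0.05: Oas1g and Oas1a, which encode oligoadenylate synthetase family proteins, their relative Oasl1, the RNA-binding Ifit1 and Ifit3b, and the nucleotide kinase gene Cmpk2. Their log2 fold changes ran from -4.69 at Oas1g to -1.62 at Oasl1. Summed over the 35 genes, levels were 645 CPM in parental 1, 428 in parental 2 and 1494 in parental 3. The KO_1E7 libraries held 379, 383 and 351 CPM and the CRISPR_1G2 libraries 320.2, 536 and 605 CPM. Every KO_1E7 sum lay below every parental sum, the other groups spread more widely than KO_1E7, and CRISPR_1G2 1 lay lowest of all 9. The calls were thus 6 of 34 tested members lower and 0 higher, where 2.87% of all tested genes were called lower and 2.54% higher. The median log2 fold change of the members was -2.08, that of all tested genes -0.028. Without parental 3 the median of the members was -1.10. An estimate below 0 was found for 34 of the 34 members, and for 29 of 34 without parental 3. At an unadjusted p below 0.05 there were 27 members, all lower (23.7% of all tested genes in either direction). With DESeq2 24 were lower and 0 higher (8.04% and 6.92% of all tested genes). Of the members, 8 (Ifih1, Ifit3b, Oas1g, Oas2, Oas3, Mx1, Mx2 and Cmpk2) lay under the filter in some KO_1E7 library, and those of them that were tested passed it on the other groups, so these counts partly follow from the filter. In 20 of the 34 tested members every KO_1E7 library lay below every parental library, as in 17.3% of all tested genes. In bulk RNA, fewer cells expressing a gene and less RNA per cell cannot be told apart.

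The number of calls rested on single libraries, and the share of all tested genes called lower (in parentheses here) moved as well. Of the 6 calls, 0 remained without KO_1E7 1 (0.116%) and 0 without KO_1E7 3 (0.0483%). Without parental 1 (0.334%), parental 3 (1.16%) or CRISPR_1G2 2 (1.09%) 2 remained, Oas1g and Ifit3b. Without KO_1E7 2 (2.16%), Oas1g and Cmpk2 remained and Ifih1 and Rsad2 joined them. Without CRISPR_1G2 1 (1.16%), Ifit1, Ifit3b, Oas1a and Oas1g remained. Without parental 2 there were 11 lower calls (1.27%), and without CRISPR_1G2 3 there were 14 (6.38%). Leaving out both parental 3 and CRISPR_1G2 3 was tried once the data had been seen, and then 10 members were lower (11.3%) and the median was -1.11. With KO_1E7 2 left out as well, 13 were lower (15.6%) and the median was -1.30.

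**Figure D2:**
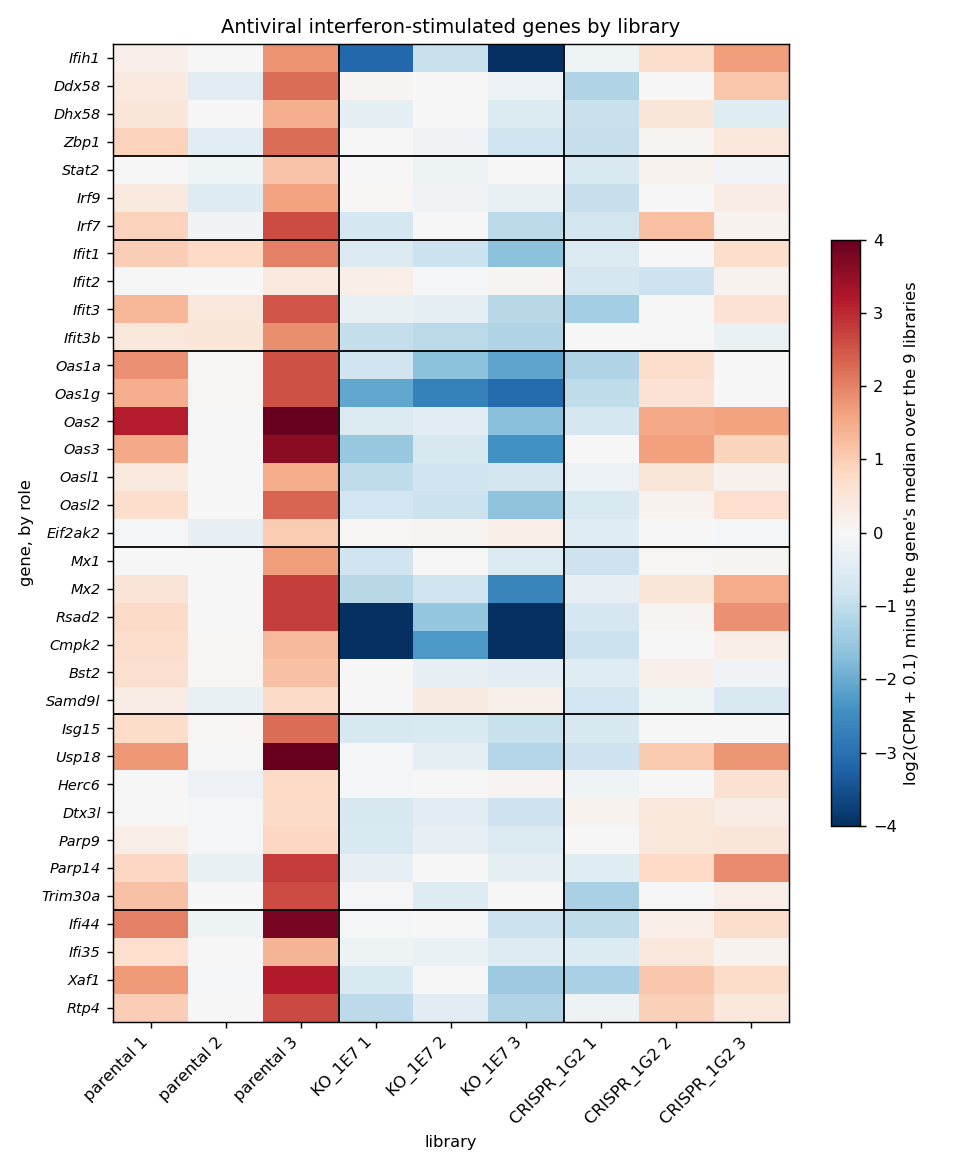
Level of each of the 35 members in each of the 9 libraries, as log2(CPM + 0.1) minus the median of the gene over the libraries (colour scale, red above and blue below the median, with values beyond 4 drawn as 4). Rows are genes grouped by role between horizontal lines, and vertical lines separate the groups of libraries. Parental 3 is the highest library for all 35 genes, and the deepest blue cells are those of Ifih1, Rsad2 and Cmpk2 in KO_1E7 1 and 3.

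Among the sensors, which recognise foreign nucleic acid, Ifih1 had the lowest estimate and 0 of 4 passed in KO_1E7 against parental by edgeR (3 at an unadjusted p below 0.05, 1 by DESeq2). Of all tested genes 23.7% had an unadjusted p below 0.05 in that comparison and 8.04% were lower by DESeq2. Ifih1, which encodes the long double-stranded RNA sensor MDA5, stood at 4.07, 3.56 and 12.5 CPM (parental 1, 2 and 3), 0.311, 1.88 and 0.119 CPM (KO_1E7 1, 2 and 3) and 3.16, 5.80 and 11.6 CPM (CRISPR_1G2 1, 2 and 3). KO_1E7 lay below every other library, and KO_1E7 2 was 8.72 times the mean of KO_1E7 1 and 3. Its log2 fold change was -3.07 ± 0.96 (SE over 3 libraries a group, adjusted p = 0.0969) against parental and -3.10 ± 0.96 (adjusted p = 0.0681) against CRISPR_1G2. Without KO_1E7 2 the adjusted p of Ifih1 was 0.0360 against parental and 0.0204 against CRISPR_1G2. Ddx58 encodes RIG-I, the sensor of short RNA with a triphosphate end. It stood at 32.8, 18.5 and 118 CPM across the parental libraries in order, at 27.0, 24.6 and 21.4 CPM across KO_1E7 and at 10.8, 25.1 and 54.1 CPM across CRISPR_1G2. The groups overlapped, and parental 3 was 4.59 times the mean of parental 1 and 2. Its difference from parental, -1.21 ± 0.71 (adjusted p = 0.344) on the log2 scale, became 0.019 without the third library of every group.

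Dhx58 encodes LGP2, the regulator of the other RIG-I-like receptors, and stood at 10.2, 7.32 and 20.3 CPM in parental libraries 1, 2 and 3, 5.62, 7.45 and 4.98 CPM in those of KO_1E7, and 3.89, 10.3 and 5.22 CPM in those of CRISPR_1G2. Only parental 3 stood clear of the rest, and the log2 fold change was -1.07 ± 0.46 (adjusted p = 0.200) in KO_1E7 against parental. Zbp1, whose product senses Z-form nucleic acid and can trigger cell death, stood at 1.80, 0.635 and 4.67 CPM (parental 1, 2 and 3), 0.904, 0.815 and 0.478 CPM (KO_1E7 1, 2 and 3) and 0.436, 0.977 and 1.28 CPM (CRISPR_1G2 1, 2 and 3). It was the lowest of the sensors per length, at a mean of 0.378 RPKM (depth-scaled reads per kilobase of annotated exon) against 5.23 RPKM for Ddx58, 2.56 for Dhx58 and 0.585 for Ifih1. The log2 fold change of Zbp1 was -1.68 ± 0.69 (adjusted p = 0.183). In CRISPR_1G2 the sensors did not share 1 pattern: CRISPR_1G2 3 held the group's highest Ifih1, Ddx58 and Zbp1, and CRISPR_1G2 2 its highest Dhx58.

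Of the STAT and IRF factors, 0 of 3 passed in any comparison by edgeR, and their median log2 fold change in KO_1E7 against parental was -0.89 (1 at an unadjusted p below 0.05 and 1 by DESeq2 in that comparison, Irf7 in both, and 0 by either measure in the other comparisons). The shares of all tested genes against parental were 23.7% at an unadjusted p below 0.05 and 8.04% lower by DESeq2. Stat2, the subunit of ISGF3 that carries its activating domain, stood at 30.8, 27.4 and 68.0 CPM across the parental libraries in order, at 31.1, 27.0 and 30.9 CPM across KO_1E7 and at 20.2, 34.2 and 28.4 CPM across CRISPR_1G2. All libraries but parental 3 lay between 20.2 and 34.2 CPM, and the log2 fold change of -0.50 ± 0.34 (adjusted p = 0.411) against parental was 0.038 without parental 3. Irf9, the DNA-binding subunit of ISGF3, stood at 38.8, 20.5 and 90.9 CPM in parental libraries 1, 2 and 3, 30.7, 26.9 and 23.7 CPM in those of KO_1E7, and 15.4, 29.5 and 36.5 CPM in those of CRISPR_1G2. The difference on the log2 scale was -0.89 ± 0.50 (adjusted p = 0.325). Without parental 3 the log2 fold change of Irf9 was -0.12. Irf7, the factor that amplifies interferon gene transcription, stood at 7.13, 3.37 and 23.3 CPM (parental 1, 2 and 3), 2.23, 3.73 and 1.73 CPM (KO_1E7 1, 2 and 3) and 2.22, 8.67 and 4.09 CPM (CRISPR_1G2 1, 2 and 3). Parental 3 was far above the other libraries, and parental 2 lay within the range of KO_1E7. The log2 fold change of Irf7 was -2.13 ± 0.75 (adjusted p = 0.130), and -1.02 without parental 3. Irf9 shares 123 bases of its span with Rnf31 and Irf7 45 with Phrf1, so reads there could not be assigned with certainty.

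Of the IFIT family, whose products bind viral RNA and block its translation, Ifit1 and Ifit3b fell and Ifit2 and Ifit3 did not pass. These were 2 of 4 lower in KO_1E7 against parental by edgeR (2.87% of all tested genes). At an unadjusted p below 0.05 there were 3 (23.7%), and 3 were lower by DESeq2 (8.04%). Ifit1 (ENSMUSG00000034459, plus strand of chromosome 19, 34640871 to 34650009) stood at 15.5, 13.8 and 31.9 CPM across the parental libraries in order, at 5.28, 4.28 and 2.48 CPM across KO_1E7 and at 5.19, 7.88 and 12.9 CPM across CRISPR_1G2. Its 3 KO_1E7 libraries lay below all parental libraries, with a log2 fold change of -2.34 ± 0.46 (SE over 3 libraries a group, adjusted p = 0.0290). Ifit3b (ENSMUSG00000062488, plus strand of chromosome 19, 34607970 to 34613401) rested on few reads in KO_1E7: parental libraries 1, 2 and 3 gave 39, 40 and 109 counts, the KO_1E7 libraries 12, 16 and 9, and the CRISPR_1G2 libraries 21, 24 and 20. Scaled, these were 1.07, 1.10 and 3.03 CPM in parental libraries 1, 2 and 3, 0.339, 0.303 and 0.269 CPM in those of KO_1E7, and 0.763, 0.756 and 0.611 CPM in those of CRISPR_1G2, and the log2 fold change was -2.50 ± 0.47 (adjusted p = 0.0250) in KO_1E7 against parental. Ifit3, its near copy, stood at 3.99, 2.15 and 9.26 CPM (parental 1, 2 and 3), 1.24, 1.16 and 0.657 CPM (KO_1E7 1, 2 and 3) and 0.545, 1.54 and 2.38 CPM (CRISPR_1G2 1, 2 and 3). It did not pass, and its log2 fold change was -2.32 ± 0.65 (adjusted p = 0.0730). Ifit3 shares 51.2% of its transcripts' 50-base words with Ifit3b, so the reads of this pair can be split between them in the authors' counting and their separate values are uncertain. Ifit2 stood at 21.5, 21.3 and 28.2 CPM across the parental libraries in order, at 26.0, 20.9 and 23.2 CPM across KO_1E7 and at 13.4, 12.2 and 23.9 CPM across CRISPR_1G2, and its log2 fold change was -0.018 ± 0.26 (adjusted p = 0.977), of either sign over the settings tried. In Ifit2 the KO_1E7 libraries lay within the parental range or just below it, and CRISPR_1G2 1 and 2 were the lowest.

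The OAS family makes the second messenger that activates RNase L, and of its 7 members with PKR, 3 fell in KO_1E7 against parental (Oas1g, Oas1a and Oasl1). By edgeR 2.87% of all tested genes were lower there. At an unadjusted p below 0.05 there were 6 of the 7 (23.7% of all tested genes), and 6 were lower by DESeq2 (8.04%). Oas1g (ENSMUSG00000066861, minus strand of chromosome 5, 120876142 to 120887613) rested on few reads in KO_1E7: parental libraries 1, 2 and 3 gave 208, 78 and 443 counts, the KO_1E7 libraries 14, 12 and 5, and the CRISPR_1G2 libraries 26, 98 and 66. Scaled, these were 5.68, 2.15 and 12.3 CPM in parental libraries 1, 2 and 3, 0.396, 0.227 and 0.149 CPM in those of KO_1E7, and 0.944, 3.09 and 2.02 CPM in those of CRISPR_1G2. All 3 KO_1E7 libraries lay below every other library, with a log2 fold change of -4.69 ± 0.77 (SE over 3 libraries a group, adjusted p = 0.0170) against parental and -2.96 ± 0.73 (adjusted p = 0.0337) against CRISPR_1G2. The first call ended in 2 of 22 other settings, without KO_1E7 1 (adjusted p = 0.0676) and without KO_1E7 3 (0.0968), over a range of adjusted p from 3.02e-09 to 0.0968. The call against CRISPR_1G2 ended in 8 of 22, over adjusted p from 0.000364 to 0.138.

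Oas1a (ENSMUSG00000052776, minus strand of chromosome 5, 120896256 to 120907521), a 2′-5′ oligoadenylate synthetase gene next to Oas1g, stood at 12.8, 3.64 and 21.3 CPM (parental 1, 2 and 3), 1.98, 1.08 and 0.746 CPM (KO_1E7 1, 2 and 3) and 1.49, 5.80 and 3.54 CPM (CRISPR_1G2 1, 2 and 3). The log2 fold change of Oas1a was -3.31 ± 0.73 (adjusted p = 0.0389) against parental. Parental 2, the lowest of its group, was still above every KO_1E7 library, and the call ended in 10 of 22 settings. Oas1a shares 57.6% of its 50-base words with Oas1g, so these 2 genes too may trade reads. Oasl1 (ENSMUSG00000041827, plus strand of chromosome 5, 114923240 to 114937915), a family member that restrains translation of Irf7 mRNA, stood at 59.9, 45.2 and 126 CPM across the parental libraries in order, at 22.5, 26.0 and 26.9 CPM across KO_1E7 and at 38.2, 63.8 and 50.7 CPM across CRISPR_1G2. Its log2 fold change was -1.62 ± 0.36 (adjusted p = 0.0395), with the KO_1E7 libraries close together and below all others.

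The other oligoadenylate synthetase genes did not pass. Oas2 stood at 6.83, 0.690 and 18.7 CPM in parental libraries 1, 2 and 3, 0.424, 0.493 and 0.149 CPM in those of KO_1E7, and 0.399, 2.14 and 2.32 CPM in those of CRISPR_1G2. The difference on the log2 scale was -4.58 ± 1.15 (adjusted p = 0.0556) against parental. Parental 1 was 9.90 times parental 2 at this gene. Oas3 stood at 5.55, 1.88 and 24.1 CPM (parental 1, 2 and 3), 0.593, 1.17 and 0.269 CPM (KO_1E7 1, 2 and 3) and 1.89, 6.11 and 3.57 CPM (CRISPR_1G2 1, 2 and 3), a log2 difference of -3.91 ± 0.98 (adjusted p = 0.0552), and Oasl2 at 19.1, 11.7 and 59.7 CPM across the parental libraries in order, at 6.75, 6.42 and 3.79 CPM across KO_1E7 and at 7.55, 12.9 and 18.6 CPM across CRISPR_1G2, a log2 difference of -2.41 ± 0.61 (adjusted p = 0.0562). For all 3 the KO_1E7 libraries lay below the parental ones, and the spread among parental libraries was wide. Eif2ak2, which encodes the double-stranded RNA-activated kinase PKR that halts translation, stood at 62.8, 52.3 and 135 CPM in parental libraries 1, 2 and 3, 68.8, 71.7 and 77.5 CPM in those of KO_1E7, and 47.0, 66.0 and 64.4 CPM in those of CRISPR_1G2. KO_1E7 lay above parental 1 and 2 and all CRISPR_1G2 libraries at Eif2ak2. The log2 fold change was -0.20 ± 0.32 (adjusted p = 0.758) against parental, 0.35 without parental 3, and 0.30 ± 0.32 (adjusted p = 0.591) against CRISPR_1G2.

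**Figure D3:**
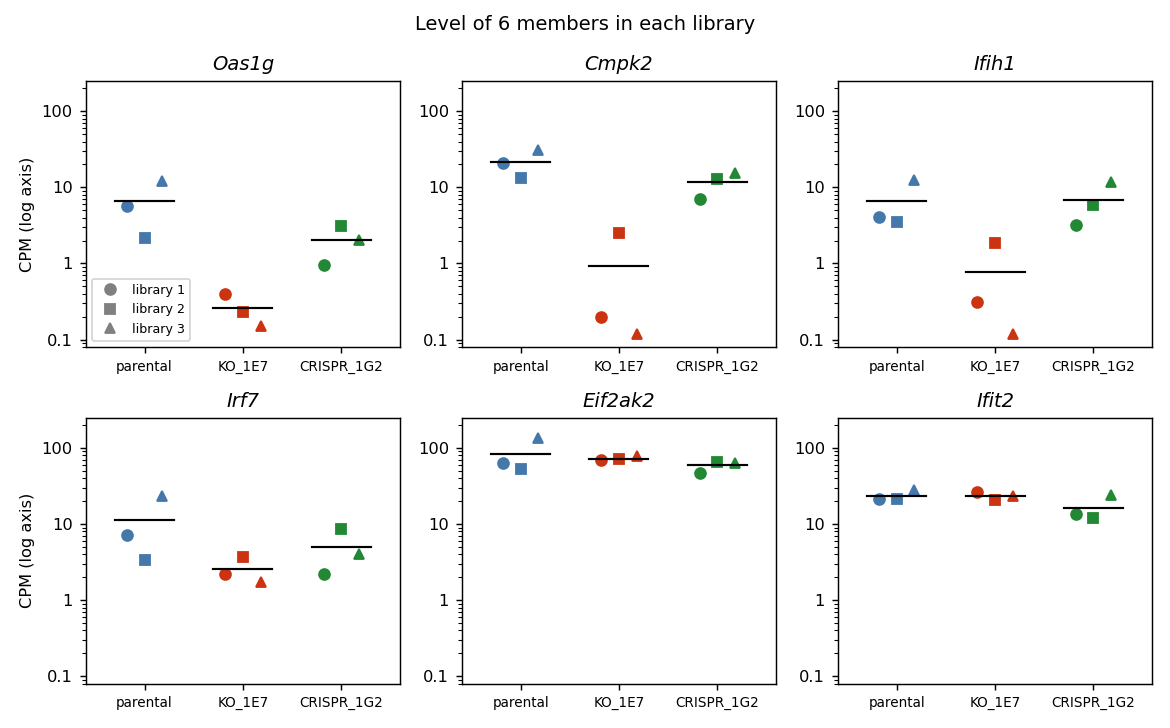
CPM of 6 members on a log axis, with 1 point per library (circle, square and triangle for libraries 1, 2 and 3) and a line at the mean of each group. Oas1g, Cmpk2 and Ifih1 are lowest in KO_1E7, with KO_1E7 2 above its group at Cmpk2 and Ifih1, while Eif2ak2 and Ifit2 overlap between KO_1E7 and parental.

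Cmpk2 and Rsad2 showed the largest differences among the inhibitors of replication and release. They are neighbours on chromosome 12 that encode a mitochondrial nucleotide kinase and viperin, an enzyme that makes a chain-terminating nucleotide. Cmpk2 (ENSMUSG00000020638, plus strand of chromosome 12, 26469204 to 26479835) rested on few reads in KO_1E7: parental libraries 1, 2 and 3 gave 755, 476 and 1122 counts, the KO_1E7 libraries 7, 131 and 4, and the CRISPR_1G2 libraries 191, 403 and 501. Scaled, these were 20.6, 13.1 and 31.2 CPM (parental 1, 2 and 3), 0.198, 2.48 and 0.119 CPM (KO_1E7 1, 2 and 3) and 6.94, 12.7 and 15.3 CPM (CRISPR_1G2 1, 2 and 3). KO_1E7 lay below every other library, and KO_1E7 2 was 15.7 times the mean of KO_1E7 1 and 3. The log2 fold change of Cmpk2 was -4.46 ± 0.97 (SE over 3 libraries a group, adjusted p = 0.0375) against parental and -3.57 ± 0.94 (adjusted p = 0.0407) against CRISPR_1G2. These calls ended in 10 and 11 of 22 other settings, over adjusted p ranges of 1.14e-05 to 0.131 and 0.000291 to 0.145. Rsad2 stood at 24.7, 14.6 and 99.9 CPM across the parental libraries in order, at 0.820, 4.89 and 0.448 CPM across KO_1E7 and at 9.19, 15.7 and 52.1 CPM across CRISPR_1G2. It followed the order of Cmpk2 in KO_1E7, and its log2 fold change of -4.46 ± 1.16 (adjusted p = 0.0606) against parental and -3.60 ± 1.12 (adjusted p = 0.0679) against CRISPR_1G2 did not pass. Without KO_1E7 2, Rsad2 had an adjusted p of 0.0464 and 0.0414 in these comparisons.

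Bst2, which encodes tetherin, the protein that holds budding virus at the cell surface, had the highest level of all members per length, at a mean of 59.3 RPKM. It stood at 74.3, 49.4 and 106 CPM in parental libraries 1, 2 and 3, 47.4, 37.3 and 35.5 CPM in those of KO_1E7, and 34.1, 54.6 and 43.0 CPM in those of CRISPR_1G2. KO_1E7 lay below parental but within the range of CRISPR_1G2, and the log2 fold change was -0.94 ± 0.28 (adjusted p = 0.0893) against parental. Mx2, a dynamin-like GTPase gene that the annotation calls a polymorphic pseudogene, ranged from 0.119 to 9.17 CPM and had a log2 fold change of -3.16 ± 0.92 (adjusted p = 0.0811). Mx1, its relative, was lower still: parental libraries 1, 2 and 3 gave 10, 10 and 39 counts, the KO_1E7 libraries 4, 14 and 5, and the CRISPR_1G2 libraries 3, 9 and 10. Samd9l, a restriction factor of poxviruses, averaged 30.2 ± 10.6 CPM (SD, n = 3) in the parental line, 27.8 ± 3.58 in KO_1E7 and 17.2 ± 3.77 in CRISPR_1G2. Every KO_1E7 library held more Samd9l than every CRISPR_1G2 library, a log2 difference of 0.69 ± 0.27 (adjusted p = 0.129).

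In the ISG15, ubiquitin and ADP-ribose system, 0 of 7 members passed in KO_1E7 against parental by edgeR. At an unadjusted p below 0.05 there were 6 (23.7% of all tested genes), and 5 were lower by DESeq2 (8.04%). Isg15, a ubiquitin-like modifier, stood at 15.7, 9.72 and 44.1 CPM (parental 1, 2 and 3), 5.99, 6.04 and 5.01 CPM (KO_1E7 1, 2 and 3) and 5.92, 9.30 and 9.40 CPM (CRISPR_1G2 1, 2 and 3). Its KO_1E7 libraries lay below the parental ones. The difference on the log2 scale was -2.03 ± 0.50 (adjusted p = 0.0544). Usp18 encodes the protease that removes ISG15 and also dampens the interferon receptor. Usp18 stood at 12.6, 3.73 and 69.6 CPM across the parental libraries in order, at 3.50, 2.90 and 1.61 CPM across KO_1E7 and at 2.03, 7.85 and 12.9 CPM across CRISPR_1G2, a log2 difference of -3.42 ± 1.05 (adjusted p = 0.0928), and parental 3 held 8.53 times the mean of parental 1 and 2. Herc6, the ligase that attaches ISG15 in mouse cells, averaged 19.1 ± 7.59 CPM (SD, n = 3) in the parental line, 16.0 ± 0.924 in KO_1E7 and 18 ± 5.44 in CRISPR_1G2. Its difference from parental was -0.25 ± 0.30 (adjusted p = 0.658) in KO_1E7, and 0.13 without parental 3.

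Dtx3l and Parp9, whose products form a ubiquitin ligase complex, had lower values in every KO_1E7 library than in any other library. Dtx3l (ENSMUSG00000049502, minus strand of chromosome 16, 35926511 to 35939151) stood at 18.7, 17.8 and 32.0 CPM in parental libraries 1, 2 and 3, 11.8, 13.8 and 10.4 CPM in those of KO_1E7, and 20.4, 25.8 and 22.9 CPM in those of CRISPR_1G2. Its log2 fold change was -0.92 ± 0.24 (adjusted p = 0.0623) against parental and -0.94 ± 0.24 (adjusted p = 0.0394) against CRISPR_1G2, so that it fell in the second comparison. That call ended in 8 of 22 other settings, over adjusted p from 0.000953 to 0.159. Parp9 stood at 22.6, 17.8 and 33.1 CPM (parental 1, 2 and 3), 12.3, 14.8 and 12.7 CPM (KO_1E7 1, 2 and 3) and 18.7, 25.9 and 26.3 CPM (CRISPR_1G2 1, 2 and 3), a log2 difference of -0.88 ± 0.24 (adjusted p = 0.0697) against parental and -0.83 ± 0.24 (adjusted p = 0.0567) against CRISPR_1G2. The spans of Dtx3l and Parp9 overlap by 682 bases on opposite strands, and Parp9 also shares 5854 bases of its span with the antisense gene Gm15564, which had 3651 counts over the 9 libraries against 6506 for Parp9. Reads there cannot be told apart without strand. Parp14, an ADP-ribosyltransferase gene, ranged from 3.56 to 34.9 CPM with a log2 difference of -1.91 ± 0.80 (adjusted p = 0.191), and Trim30a, of the TRIM family of ubiquitin ligases, from 1.42 to 22.5 CPM with a log2 difference of -1.84 ± 0.65 (adjusted p = 0.131), with overlapping groups in both.

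Among the remaining induced genes 0 of 4 passed in KO_1E7 against parental by edgeR. All 4 had an unadjusted p below 0.05 (23.7% of all tested genes) and all 4 were lower by DESeq2 (8.04%). Ifi35, which encodes a leucine zipper protein of the interferon response, stood at 17.2, 10.9 and 28.3 CPM across the parental libraries in order, at 9.47, 9.10 and 7.55 CPM across KO_1E7 and at 7.48, 14.8 and 12.1 CPM across CRISPR_1G2, a log2 difference of -1.11 ± 0.36 (adjusted p = 0.109). Rtp4, a chaperone gene of G protein-coupled receptors, stood at 11.5, 5.82 and 36.6 CPM in parental libraries 1, 2 and 3, 2.74, 4.19 and 2.48 CPM in those of KO_1E7, and 5.08, 11.3 and 7.88 CPM in those of CRISPR_1G2, a log2 difference of -2.51 ± 0.64 (adjusted p = 0.0576). In both, KO_1E7 lay below all parental libraries. Rtp4 shares 39791 bases of its span with Gm45338 on the same strand and 300 with Masp1 on the other strand. Gm45338 had 412 counts and Masp1 6912, against 3107 for Rtp4. Reads in the shared stretches could not be assigned with certainty. Ifi44 stood at 12.5, 2.62 and 43.9 CPM (parental 1, 2 and 3), 2.94, 3.03 and 1.64 CPM (KO_1E7 1, 2 and 3) and 1.45, 3.62 and 4.98 CPM (CRISPR_1G2 1, 2 and 3), a log2 difference of -2.95 ± 0.89 (adjusted p = 0.0881), and Xaf1, a gene linked to apoptosis, ranged from 0.985 to 26.4 CPM with a log2 difference of -2.76 ± 0.87 (adjusted p = 0.0999). In Ifi44 and Xaf1 parental 2 lay within the KO_1E7 range, and parental 1 and 3 above it.

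**Figure D4:**
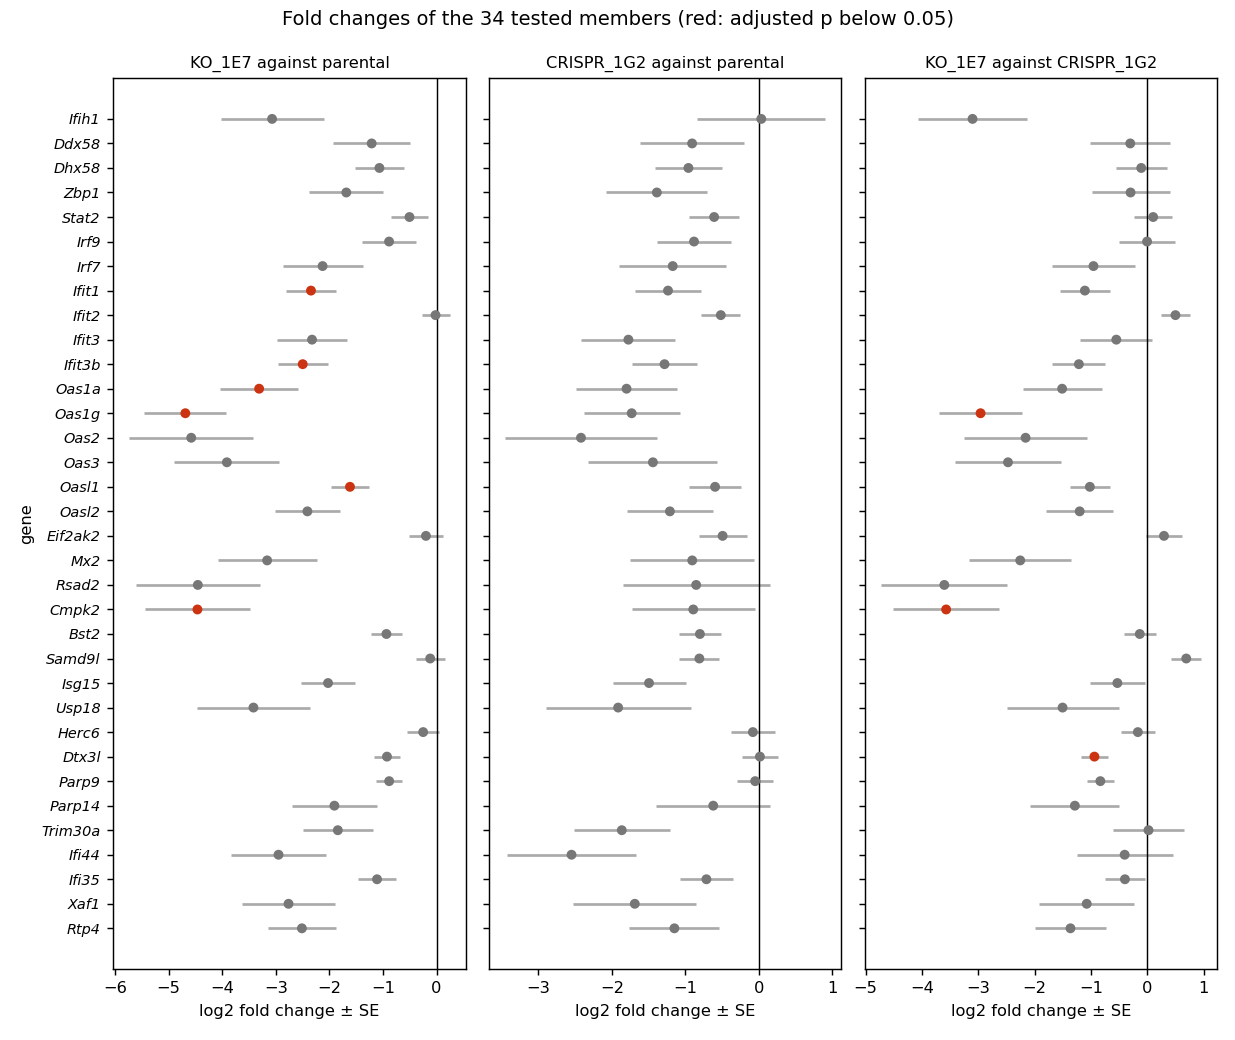
Log2 fold changes of the 34 tested members with their standard errors (bars) in the 3 comparisons, ordered by role, with red points for an adjusted p below 0.05 and an axis range of its own in each panel. In KO_1E7 against parental 34 points lie below 0, of which 29 stay there without parental 3, and 6 are red. In KO_1E7 against CRISPR_1G2 3 are red.

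Parental 3 was the highest of all 9 libraries for 35 of 35 members, at a median of 3.14 times the mean of parental 1 and 2. The smallest such ratio was at Ifit2 (1.32 times that mean) and the highest at Usp18. Of all tested genes 51.8% were lower in parental 3 than in parental 1, and 49.1% lower in parental 3 than in parental 2. Parental 1 was in turn above parental 2 for 33 members, by a median log2 ratio of 0.69 and up to 9.90 times at Oas2. There 51.6% of all tested genes were lower in parental 1. CRISPR_1G2 1 was the lowest of its group for 33 members, and KO_1E7 3 of its group for 26. Parental 3 also had the highest ribosomal RNA share, and its p53 target sum was above those of parental 1 and 2. CRISPR_1G2 3 had the highest p53 target sum of all libraries. Its member sum of 605 CPM was the highest of its group, beside 320.2 and 536 CPM, and lay below the 645 CPM of parental 1. The part of the ribosomal RNA share or of the p53 target sum in the result was not tested. With ribosomal RNA related genes left out of library sizes and tests, 6 members were lower (2.80% of all tested genes) and the median was -2.09.

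Within the 3 libraries named NSG, which hold 1 library per group and allow no test, KO_1E7 3 was below parental 3 for 35 of 35 members, at a median log2 ratio of -3.29, where 50.4% of all tested genes were lower. CRISPR_1G2 3 was below parental 3 for 35 members, at -1.36 (46.3% of all tested genes), and KO_1E7 3 below CRISPR_1G2 3 for 32, at -1.34 (49.7%). The counts of 35 follow from parental 3 being the highest library for every member, so they are no separate result. Among the 6 dated libraries, 4 members were lower in KO_1E7 against parental (Ifit1, Ifit3b, Oas1g and Oasl1) beside 5.76% of all tested genes, with a median log2 fold change of -1.09. Each pair of libraries that share a date allows no test either. CRISPR_1G2 1 was below parental 2, of the same date, for 31 of 35 members and above it for 4, at a median log2 ratio of -0.60 (51.5% of all tested genes lower). KO_1E7 1 was below parental 1, of the same date, for 32 members, at -1.41 (51.2%), but below parental 2 for 26, with Irf9 at 1.49 times parental 2. KO_1E7 2 differed from its sister libraries most at Cmpk2, Ifih1 and Rsad2, as given above, and at Oas3 (2.73 times the mean of KO_1E7 1 and 3).

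CRISPR_1G2 against parental had 0 of 34 members lower and 0 higher by edgeR, and 0 by DESeq2, where 0.254% of all tested genes were lower and 0.0% higher by edgeR, and 1.05% and 0.438% by DESeq2. At an unadjusted p below 0.05 there were 11 members, all lower (7.73% of all tested genes in either direction). The median log2 fold change of the members was -0.93, that of all tested genes 0.020, and 32 of 34 estimates lay below 0. Without parental 3 that median was -0.27 and 24 of 34 estimates lay below 0. The lowest were Ifi44 at -2.55 ± 0.88 (adjusted p = 0.538) and Oas2 at -2.42 ± 1.03 (adjusted p = 0.631). Ifih1 stood at 0.031 ± 0.87 (adjusted p = 0.998), a value whose sign changed with the setting. In Ifit1, Ifit3b and Isg15, 3 members against 6.45% of all tested genes, every CRISPR_1G2 library lay below every parental library, and 0 members lay above (6.64% of all tested genes). These comparisons share the parental libraries, so their values are given side by side and their likeness is no separate result.

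KO_1E7 against CRISPR_1G2 had 3 members lower (Oas1g, Cmpk2 and Dtx3l) and 0 higher by edgeR, where 7.03% of all tested genes were lower and 5.71% higher. DESeq2 gave 9 lower and 0 higher (11.7% and 9.69% of all tested genes). At an unadjusted p below 0.05 there were 12, of which 1, Samd9l, was higher (29.0% of all tested genes in either direction). The median log2 fold change of the members was -0.95, that of all tested genes -0.032. Groups did not overlap for 12 members lower and 2 higher in KO_1E7, as in 19.4% and 19.2% of all tested genes. Of the lower ones, Oas1g, Cmpk2, Ifih1, Ifit3b, Oas3 and Mx2 lay under the filter in some KO_1E7 library and passed it on the other groups. The lower calls and the lower counts here thus partly follow from the filter too. The 3 calls rested on single libraries: 0 remained without KO_1E7 1, KO_1E7 3, CRISPR_1G2 2, CRISPR_1G2 3 or parental 1 (1.52%, 1.09%, 3.21%, 6.19% and 4.02% of all tested genes lower, in that order). Oas1g alone remained without CRISPR_1G2 1 (3.31%), and Cmpk2 remained without KO_1E7 2 (4.84%), where Ifih1 and Rsad2 joined it. Without parental 3 there were 8 lower calls (7.54%), and 10 (18.4%) with parental 3, CRISPR_1G2 3 and KO_1E7 2 left out.

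Upstream of these genes, interferon transcripts were scarce. Of 21 interferon ligand genes 0 passed the filter on low counts. Ifnb1, which encodes interferon beta, was read rarely: parental libraries 1, 2 and 3 gave 3, 0 and 74 counts, the KO_1E7 libraries 3, 0 and 1, and the CRISPR_1G2 libraries 0, 0 and 30. Its counts thus lay almost entirely in the libraries parental 3 and CRISPR_1G2 3, and KO_1E7 3, the other NSG library, had 1. Ifna13 reached 20 counts in CRISPR_1G2 3 and 14 in parental 3, and at most 6 elsewhere. Parental 3 and CRISPR_1G2 3 also held the highest member sums of their groups, at 1494 and 605 CPM. Parental 1, with 3 Ifnb1 counts, had a member sum of 645 CPM. The part of interferon transcripts in the member levels was not tested.

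Over all 83 tested genes of the upstream and response lists, 1 was lower and 3 higher in KO_1E7 against parental by edgeR (2.87% and 2.54% of all tested genes). By DESeq2 13 were lower and 5 higher (8.04% and 6.92%), and 26 had an unadjusted p below 0.05 (23.7%). Against CRISPR_1G2 6 were lower and 7 higher by edgeR (7.03% and 5.71%). Of 9 interferon receptor and JAK kinase genes 1 rose in KO_1E7 against parental and 0 fell. It was Jak1, a kinase of all interferon receptors, at 106, 113 and 99.4 CPM across the parental libraries in order, at 146, 141 and 152 CPM across KO_1E7 and at 109, 107 and 106 CPM across CRISPR_1G2. The log2 fold change of Jak1 was 0.47 ± 0.10 (adjusted p = 0.0390) against parental and 0.45 ± 0.10 (adjusted p = 0.0256) against CRISPR_1G2. Ifnar1, a chain of the type I receptor, averaged 49.5 ± 7.29 CPM (SD, n = 3) in the parental line, 53 ± 4.45 in KO_1E7 and 55.6 ± 6.08 in CRISPR_1G2, and did not pass. Ifnlr1, a chain of the type III receptor, fell in KO_1E7 against CRISPR_1G2 (log2 difference -1.33 ± 0.32, adjusted p = 0.0297).

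Of 7 other STAT and IRF factors 1 rose in KO_1E7 against parental. Stat3, the factor of the IL-6 family, stood at 54.9, 67.7 and 60.2 CPM in parental libraries 1, 2 and 3, 141, 103 and 129.5 CPM in those of KO_1E7, and 64.5, 68.6 and 61.9 CPM in those of CRISPR_1G2. Every KO_1E7 library was above every other, a log2 difference of 1.03 ± 0.15 (adjusted p = 0.0128) against parental and 0.94 ± 0.15 (adjusted p = 0.00687) against CRISPR_1G2. Irf3, the factor that the sensors activate, averaged 35.7 ± 3.29 CPM in the parental line and 29.5 ± 1.75 in KO_1E7, and Irf8 fell in KO_1E7 against CRISPR_1G2 (log2 difference -2.27 ± 0.58, adjusted p = 0.0361).

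Of 13 tested genes for adaptors, kinases and other sensors 1 fell in KO_1E7 against parental and 0 rose. Mavs, which encodes the mitochondrial adaptor of MDA5 and RIG-I, stood at 74.2, 68.4 and 60.4 CPM (parental 1, 2 and 3), 36.3, 50.3 and 40.7 CPM (KO_1E7 1, 2 and 3) and 66.4, 75.2 and 68.1 CPM (CRISPR_1G2 1, 2 and 3). All KO_1E7 libraries were below all others, a log2 difference of -0.67 ± 0.15 (adjusted p = 0.0398) against parental and -0.72 ± 0.15 (adjusted p = 0.0188) against CRISPR_1G2. Against CRISPR_1G2, Traf6 also fell (log2 difference -0.61 ± 0.15, adjusted p = 0.0337) and Tlr4 rose (log2 difference 0.46 ± 0.12, adjusted p = 0.0390). Tbk1 and Traf3, the highest of this list by mean CPM over all 9 libraries, averaged 133 ± 18.7 and 86.9 ± 9.04 CPM in KO_1E7 and 150.2 ± 23.7 and 103 ± 18.6 CPM in the parental line. Of 6 feedback inhibitors Socs3, which restrains JAK and STAT signalling, rose in KO_1E7 from 16.6 ± 0.890 CPM in parental to 30.0 ± 3.91, a log2 difference of 0.85 ± 0.16 (adjusted p = 0.0247) against parental and 0.84 ± 0.16 (adjusted p = 0.0136) against CRISPR_1G2. Against CRISPR_1G2 the phosphatase gene Ptpn6 rose (log2 difference 1.02 ± 0.22, adjusted p = 0.0199) and Ptpn11 fell (log2 difference -0.65 ± 0.18, adjusted p = 0.0466), while Ptpn2 averaged 40.4 ± 2.65 CPM in KO_1E7 and 42.6 ± 7.56 in CRISPR_1G2. Of 7 tested genes of nucleic acid clearance and editing 0 passed in KO_1E7 against parental by edgeR (2 at an unadjusted p below 0.05, 1 lower and 0 higher by DESeq2), among them the abundant Skiv2l, at 127 ± 4.23 CPM in KO_1E7 and 101 ± 28.3 in the parental line, and Adar, at 89.1 ± 8.70 and 123 ± 48.4 CPM. Samhd1, a dNTP hydrolase gene, fell against CRISPR_1G2 (log2 difference -0.48 ± 0.12, adjusted p = 0.0344). In CRISPR_1G2 against parental 0 of all 83 tested genes of these upstream and response lists passed by edgeR (11 at an unadjusted p below 0.05, 2 lower and 0 higher by DESeq2). Of all tested genes there, 7.73% had an unadjusted p below 0.05, and 1.05% were lower and 0.438% higher by DESeq2.

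Over 22 other settings the call of Jak1 against parental ended in 11, Mavs in 10, Socs3 in 5 and Stat3 in 3. The call of Jak1 was lost without parental 1, parental 2, parental 3, KO_1E7 1, KO_1E7 2, KO_1E7 3, CRISPR_1G2 1 or CRISPR_1G2 2. The call of Mavs was lost without parental 1, parental 2, parental 3, KO_1E7 1, KO_1E7 3, CRISPR_1G2 1 or CRISPR_1G2 2. The call of Socs3 was lost without parental 1, parental 2, parental 3, KO_1E7 1 or KO_1E7 3. The call of Stat3 was lost without parental 1, KO_1E7 1 or KO_1E7 3. Over these leave-outs the log2 fold change against parental ran from 0.43 to 0.52 for Jak1, -0.81 to -0.56 for Mavs, 0.76 to 0.93 for Socs3 and 0.94 to 1.16 for Stat3. The share of all tested genes called lower there ran from 0.0483% to 6.38% and that called higher from 0.0966% to 5.82%. Against CRISPR_1G2 the call of Stat3 ended in 0 settings, and those of the other genes named in 3 to 13, each of them without KO_1E7 1 or KO_1E7 3.

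Markers of immune cells, which also transcribe these genes, were low. Their summed level was 23.2, 3.53 and 11.1 CPM in parental 1, 2 and 3, 21.9 to 23.1 CPM in KO_1E7 and 20.1 to 29.5 CPM in CRISPR_1G2. Of 12 symbols 5 reached 1 CPM in any library. Ptprc, the pan-leukocyte gene of CD45, stood at 1.97, 0.0276 and 0.0834 CPM in parental 1, 2 and 3 and 1.84, 2.56 and 1.88 CPM in KO_1E7 1, 2 and 3. Parental 3, the library with the highest members, held less Ptprc than KO_1E7. Lyz2, the highest gene of the list, stood at 12.4, 0.525 and 2.39 CPM in parental 1, 2 and 3. In KO_1E7 1, 2 and 3 it stood at 14.7, 13.2 and 13.5 CPM. Cd68, a macrophage marker, went the other way, at 4.54, 2.65 and 7.92 CPM in parental 1, 2 and 3. In KO_1E7 1, 2 and 3 Cd68 stood at 2.77, 3.07 and 2.06 CPM. Cd3e and Ncr1, of T cells and natural killer cells, had at most 1 count in any library. Summed endothelial markers stayed at or below 2.32 CPM, erythroid ones at or below 1.95 and islet ones at or below 0.0305. Fibroblast markers, led by Pdgfrb, summed to 43.6 to 143 CPM over all libraries, and acinar markers, led by Cela1, to 1.27 to 13.3 CPM, highest in KO_1E7. The part of these cell types in the result was not tested.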

How the data were processed

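Bulk poly(A) RNA of 9 libraries was sequenced after oligo-dT selection, per the labels' protocols. The deposited values were raw counts of reads per gene, made by the authors with STAR 2.5.2b and, from Subread 1.5.2, featureCounts, on GRCm38, per the submitters' processing notes. The annotation release and the strand setting are not given in the sources used here, and the library kit named in the labels does not mark strand. The 92 spike-in controls (0.344% to 0.820% of counts) were left out. Groups and replicate numbers came from the sample titles. Nothing in the labels says that replicates were separate cultures, so p-values reflect the spread among these samples alone, and that spread may be technical.

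Genes were tested in R 4.3.3 with the robust quasi-likelihood F-test of edgeR 4.0.16 on TMM-scaled counts, all 9 libraries in 1 fit, with 15766 genes past edgeR's expression filter (about 0.287 CPM in 3 libraries) and Benjamini-Hochberg adjustment over all of them within each comparison. In KO_1E7, 8 members, Mx1 among them, lay under that level in some library. CPM use TMM-scaled library sizes, and RPKM divide them by the deposited exon length. DESeq2 1.42.0 and further settings were run as alternatives. The test was tested on simulated data. Text values in every library were given for all sensors, all STAT and IRF factors, every member called in a comparison and the 2 members highest per length in each other role; other members are given by range, and Ifit3, Oas2, Oas3, Oasl2, Parp9 and Ifi44 were added after their values were seen. Of the other pathway genes, those called and the 2 most abundant per list are named, and Ifna13 was added. Some results are not reported here. The members and gene lists were chosen with earlier results of these data known. Promoters are RefSeq sequences on GRCm38.p6.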

Additional observations from a re-analysis of the deposited data

How the results depend on the processing

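Direction held in every setting run for the median of the members in all 3 comparisons, and the number of calls did not. In KO_1E7 against parental, members called lower numbered 0 to 14 when 1 library was left out (with 0.0483% to 6.38% of all tested genes called lower, a share given in each parenthesis), 24 with DESeq2 (8.04%), 14 with a term for the word NSG (7.002%), 10 without parental 3 and CRISPR_1G2 3 (11.3%), and 13 without these and KO_1E7 2 (15.6%), the last 2 settings being chosen after seeing the data. The median ran from -2.38 to -1.10 with 1 library left out, and was -1.09 without the third library of every group, -1.11 without parental 3 and CRISPR_1G2 3 and -1.30 without KO_1E7 2 as well. In KO_1E7 against CRISPR_1G2, lower calls numbered 0 to 8 with 1 library left out (1.09% to 7.54%), 9 with DESeq2 (11.7%), 5 with the NSG term (11.3%), 5 without parental 3 and CRISPR_1G2 3 (14.4%), and 10 without KO_1E7 2 as well (18.4%). Higher calls there numbered 0 to 1 with 1 library left out (1.65% to 6.90% of all tested genes higher) and 1 (Ifit2) without the third libraries (10.1%), without parental 3 and CRISPR_1G2 3 (14.7%), and without KO_1E7 2 as well (17.1%). In CRISPR_1G2 against parental, 1 member (Ifit2) was lower in that last setting (0.991%) and 0 in the others. With 1 library left out the median there ran from -1.38 to -0.27 and estimates below 0 numbered 24 to 35. Where single libraries or settings moved a count, the cause was not tested. TMM, DESeq2 size factors, upper quartile scaling and total counts each gave the same 6 calls against parental, and total counts moved the median of all tested genes in CRISPR_1G2 against parental to 0.11. Replicate numbers were not treated as pairs, since the deviations of same-numbered libraries had correlations from -0.050 to 0.647 and 5 of 9 pairs above 0.1, and 4 of 9 libraries were closest to their own number. The 2 pairs with a shared date had correlations of -0.0034 (parental 1 and KO_1E7 1) and 0.540 (parental 2 and CRISPR_1G2 1), and a fit with a term for each date was not run. With the replicate block, 6 members were lower against parental (the same genes), 4 against CRISPR_1G2 (Parp9 joined) and 0 in CRISPR_1G2 against parental, beside 4.50%, 9.22% and 0.228% of all tested genes. Estimates that changed sign did not pass in either direction. Against parental, Eif2ak2 ran from -0.43 to 0.35 with 1 library left out and was 0.30 without the third libraries, 0.34 without parental 3 and CRISPR_1G2 3 and 0.35 without KO_1E7 2 as well; Samd9l ran from -0.34 to 0.18 with 1 library left out and was 0.18 without the third libraries, 0.17 without parental 3 and CRISPR_1G2 3 and 0.074 without KO_1E7 2 as well; Herc6 ran from -0.44 to 0.13 with 1 library left out and was 0.086 without the third libraries, 0.12 without parental 3 and CRISPR_1G2 3 and 0.14 without KO_1E7 2 as well; Ifit2 ran from -0.095 to 0.14 with 1 library left out and was 0.14 without the third libraries, 0.13 without parental 3 and CRISPR_1G2 3 and 0.21 without KO_1E7 2 as well, and Ifit2 was also 0.078 with total counts, 0.011 with no filter, 0.0041 with the replicate block and 0.0095 with the NSG term. Ddx58 in KO_1E7 against parental was 0.019 without the third libraries, and Stat2 ran from -0.73 to 0.038 with 1 library left out and was 0.038 without parental 3, 0.0076 without the third libraries, 0.029 without parental 3 and CRISPR_1G2 3 and 0.094 without KO_1E7 2 as well. Ifih1 in CRISPR_1G2 against parental was -0.033 with upper quartile scaling, -0.040 with the replicate block, and ran from -0.58 to 0.84 with 1 library left out. Depth limits Mx1, Ifit3b, and the KO_1E7 levels of Oas1g and Cmpk2, which rest on few counts.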

Other observations

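Further interferon-stimulated genes outside the antiviral members did not share 1 pattern. Of 41 tested, 0 fell and 0 rose in KO_1E7 against parental by edgeR (12 at an unadjusted p below 0.05, 10 lower and 0 higher by DESeq2), with a median log2 fold change of -0.52. Of all tested genes 2.87% fell and 2.54% rose by edgeR, and 23.7% had an unadjusted p below 0.05. By DESeq2 8.04% of all tested genes were lower and 6.92% higher. Rnf213, which encodes a large ubiquitin ligase, stood at 312, 187 and 704 CPM across the parental libraries in order, at 163, 166 and 150.3 CPM across KO_1E7 and at 165, 227 and 316 CPM across CRISPR_1G2, highest in parental 3 like the members. Ifitm3, which encodes a protein that blocks virus entry at membranes, was instead lowest in parental 3 within the parental group, at 307, 297 and 193 CPM in parental libraries 1, 2 and 3, 141, 229 and 100.4 CPM in those of KO_1E7, and 532, 609.9 and 176 CPM in those of CRISPR_1G2. Its log2 difference in KO_1E7 was below 0 like those of the members against parental, at -0.76 ± 0.46, and -1.49 ± 0.47 against CRISPR_1G2. Ifitm1, chosen after its values were seen, stood at 142, 154 and 33.6 CPM (parental 1, 2 and 3), 5.03, 125 and 2.09 CPM (KO_1E7 1, 2 and 3) and 289, 330.3 and 40.5 CPM (CRISPR_1G2 1, 2 and 3). In Ifitm1 and Ifitm3 parental 3 and CRISPR_1G2 3 were the lowest of their groups, and KO_1E7 2 was the highest of its group. Ifitm3 did not pass in any comparison.

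Against CRISPR_1G2, 2 of these genes rose in KO_1E7 and 0 fell, where 5.71% of all tested genes were higher and 7.03% lower. Ifi203, a gene of the interferon-inducible p200 family of nucleic acid binding proteins, stood at 4.10, 1.44 and 8.70 CPM across the parental libraries in order, at 8.39, 5.21 and 7.16 CPM across KO_1E7 and at 0.545, 1.54 and 0.916 CPM across CRISPR_1G2, a log2 difference of 2.78 ± 0.64 (adjusted p = 0.0261). Lgals9, which encodes galectin-9, stood at 14.9, 8.20 and 22.9 CPM in parental libraries 1, 2 and 3, 29.6, 10.9 and 26.0 CPM in those of KO_1E7, and 3.41, 6.71 and 7.82 CPM in those of CRISPR_1G2, a log2 difference of 1.89 ± 0.50 (adjusted p = 0.0415). At both genes every KO_1E7 library lay above every CRISPR_1G2 library, opposite to Oas1g and Cmpk2. Groups did not overlap for 8 of the 41 genes higher and 5 lower, as in 19.2% and 19.4% of all tested genes.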
